A study of Homo sapiens with 18 samples.

Results

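A set of 10 genes of early and recycling endosomes was examined, namely the Rab GTPase genes RAB5A, RAB5B, RAB5C, RAB4A, RAB11A, RAB11B and RAB8A, the RAB5 effector genes EEA1 and RABEP1, and the RAB5 exchange factor gene RABGEF1. The genes were chosen by name, with earlier results of these data known. Each was found by matching the RefSeq accession of its row to the gene symbol, and all 10 were present among the 20802 genes listed for each library. The question was whether their mRNA levels moved when ESCRT-I was depleted from RKO cells, an established human colorectal carcinoma line. All cells were transfected with 30 nM of a single siRNA by means of Lipofectamine RNAiMAX and harvested after 72 h, controls included. The 6 groups were 2 nontargeting controls (siCtrl#1 and siCtrl#2), 2 siRNAs against TSG101 (siTsg101#1 and siTsg101#2) and 2 siRNAs against VPS28 (siVps28#1 and siVps28#2), with 3 replicates each and thus 18 libraries. The replicates are described as biological, and each carries a batch number that is the same as its replicate number. As a model these groups represent transient mRNA depletion in 1 cell line, without a genetic deletion.

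Rab proteins are small GTPases that bind a membrane in their GTP form and recruit effectors that give each compartment its identity. The RAB5 paralogs act on early endosomes: RABGEF1 (Rabex-5) loads RAB5 with GTP, RABEP1 (Rabaptin-5) binds active RAB5 together with RABGEF1, and EEA1 tethers early endosomes for fusion. RAB4A and the RAB11 paralogs return internalized receptors to the cell surface by rapid and slower routes, and RAB8A acts in recycling and in transport towards the plasma membrane. ESCRT-I, which contains Tsg101 and Vps28, sorts ubiquitinated receptors from the same endosomes into intraluminal vesicles for degradation in lysosomes.

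The libraries were made with an amplicon panel that reads a short stretch of each transcript, so levels are given per gene as counts scaled to the TMM-normalized library size (CPM) and are not compared between genes. Gene reads ranged from 2561790 to 7466916 per library, and 10212 genes passed the filter of more than 100 counts summed over the libraries. In siTsg101 libraries the TSG101 level was between 2.39 and 4.79 CPM, against 71.5 to 152 CPM in the controls, and in siVps28 libraries the VPS28 level was between 3.34 and 7.47 CPM, against 62.5 to 107 CPM. Of the epithelial markers, EPCAM, KRT8 and KRT18 had more than 100 counts in all, whereas CDH1 had 0 counts in all libraries and KRT19 had 1. CDX2 was the only one of 6 colon markers above this minimum, and PTPRC, CD3E, COL3A1 and ALB of other cell types had no counts, with VIM above the minimum. The summed level of the 6 epithelial markers was 99.1 to 121 CPM in control libraries and 70.5 to 113 CPM in on-target libraries. Averaged over the on-target siRNAs, EPCAM differed from siCtrl#1 by 0.65 and KRT8 by -0.69 on the log2 scale, and EPCAM differed by 1.02 with siCtrl#2. The part of these markers in the results was not tested, and fewer cells of a type and less RNA per cell cannot be told apart in such bulk samples.

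Upstream sequences of the RAB5 paralogs and of EEA1 are shown here because RAB5B and EEA1 carried most of the differences described below, while RAB5A and RAB5C are the paralogs of RAB5B. They are the 250 bases before the first listed transcription start in RefSeq (GRCh38.p14), 5′ to 3′ on the strand of the gene. RAB5A lies on the plus strand (chr3:19946847-19947096), RAB5B on the plus strand (chr12:55973699-55973948), RAB5C on the minus strand (chr17:42154990-42155239) and EEA1 on the minus strand (chr12:92929296-92929545). Capitals mark matches to the motifs searched.
RAB5A: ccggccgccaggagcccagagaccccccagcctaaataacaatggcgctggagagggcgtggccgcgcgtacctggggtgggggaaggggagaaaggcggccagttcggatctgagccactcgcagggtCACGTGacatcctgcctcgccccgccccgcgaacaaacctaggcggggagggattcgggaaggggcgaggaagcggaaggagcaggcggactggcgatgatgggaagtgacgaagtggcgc
RAB5B: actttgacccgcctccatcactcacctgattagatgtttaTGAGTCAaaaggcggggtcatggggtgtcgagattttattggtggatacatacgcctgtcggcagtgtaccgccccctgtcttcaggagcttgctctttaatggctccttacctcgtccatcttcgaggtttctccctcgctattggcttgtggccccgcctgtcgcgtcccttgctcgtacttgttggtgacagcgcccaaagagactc
RAB5C: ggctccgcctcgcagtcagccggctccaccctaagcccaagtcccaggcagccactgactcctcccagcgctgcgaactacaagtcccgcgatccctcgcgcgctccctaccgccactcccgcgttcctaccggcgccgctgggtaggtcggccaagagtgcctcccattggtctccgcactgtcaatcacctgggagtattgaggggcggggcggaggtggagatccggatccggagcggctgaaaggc
EEA1: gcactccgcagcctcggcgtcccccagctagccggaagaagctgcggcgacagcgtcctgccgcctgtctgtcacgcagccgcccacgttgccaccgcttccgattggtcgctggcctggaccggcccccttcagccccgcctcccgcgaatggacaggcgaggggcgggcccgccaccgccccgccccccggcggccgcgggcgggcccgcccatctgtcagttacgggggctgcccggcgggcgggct

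Promoter windows of 250 bases before and 50 bases after a start were found for 9 of the 10 genes, all but RABEP1, and were searched on both strands. The E-box CACGTG was present in RAB5A, where it began 121 bases before the start, and in RAB4A, where it began 102 bases before the start. It occurs in 8.77% of the 27305 genes with a window. With 2 flanking bases on each side the RAB5A match reads GTCACGTGAC. E-boxes are bound by many basic helix-loop-helix factors, the MiT-TFE family among them. RAB5B held an AP-1 site (searched as TGANTCA) that began 210 bases before its first start, a motif present in 9.37% of genes. The other 6 genes with a window held neither motif. A match describes the letters only.

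**Figure D1:**
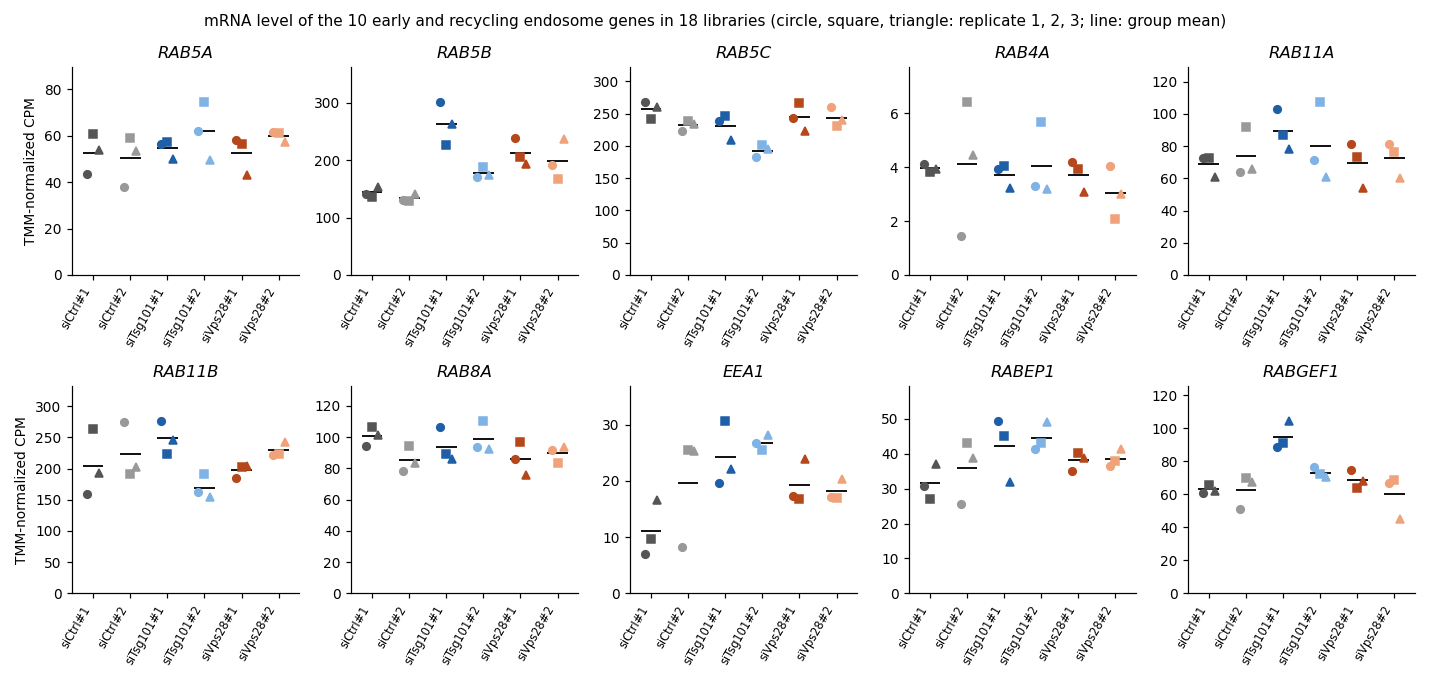
TMM-normalized CPM (y axis, linear, from 0, with its own range per gene) of each of the 10 genes in the 6 siRNA groups (x axis), with circles, squares and triangles for replicates 1, 2 and 3 and a line for the group mean. All 12 on-target libraries lie above all 6 control libraries for RAB5B (167.6 to 301.6 against 128.8 to 154.1 CPM), whereas the ranges overlap for the other 9 genes.

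Of the 10 genes, EEA1 and RAB5B were higher in the ESCRT-I-depleted cells than with siCtrl#1 on average, a share near that of all genes. When the 4 on-target siRNAs were averaged and set against siCtrl#1, EEA1 rose by 0.95 on the log2 scale (SE 0.26, edgeR adjusted p = 0.0114) and was the only gene of the set called, meaning past 1.5-fold in either direction at an adjusted p-value under 0.05. This was 1 of 10 genes, beside 8.56% of all 10212 tested genes called up and 6.54% called down. RAB5B was higher by 0.55 (SE 0.13, edgeR adjusted p = 0.00243), which is 1.46-fold and just under the fold threshold. At any fold, 2 of the 10 genes therefore passed on the adjusted p-value, beside 23.8% of all genes. The differences of the other 8 genes lay between -0.18 (RAB5C) and 0.35 (RABEP1) and did not pass. Over the set, 7 values were above 0 and 3 below, with a median of 0.15 beside a median of -0.0035 over all tested genes.

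For 6 genes the mean difference of the 4 siRNAs from siCtrl#1 was bounded to less than 1.5-fold either way. The 95% intervals of RAB5A, RAB5C, RAB11A, RAB11B, RAB8A and RABGEF1 lay between -0.39 and 0.52. The intervals of RABEP1 (0.029 to 0.68) and RAB4A (-0.78 to 0.49) extended beyond 1.5-fold. The bound does not hold for each single siRNA, since the interval was 0.25 to 0.94 for RABGEF1 with siTsg101#1 and -0.69 to -0.14 for RAB5C with siTsg101#2. No gene of the set was called up, or down, by every on-target siRNA, beside 2.59% of all genes called up and 1.54% called down by this rule.

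The siRNAs were then set against siCtrl#1 one at a time. siTsg101#1 gave 3 calls, all up (RAB5B, EEA1 and RABGEF1), beside 11.8% of all genes called up, and siTsg101#2 gave 1, EEA1, beside 10.4%. With siTsg101#2, 2 genes (EEA1 and RAB5C) passed on the adjusted p-value at any fold, beside 20.7% of all genes. With siVps28#1 and siVps28#2, 0 of the 10 genes were called by edgeR, beside 8.68% and 13.3% of all genes called in either direction. DESeq2 also called 0 with each, and RAB5B and EEA1 were the 2 genes with an unadjusted p under 0.05 in either contrast. RAB5B alone had an adjusted p-value under 0.05 with each Vps28 siRNA, at less than 1.5-fold. Beside it, 9.45% (siVps28#1) and 15.0% (siVps28#2) of all genes passed at any fold. Neither pass of RAB5B held with every single library left out (edgeR adjusted p up to 0.104 and 0.21). These 4 contrasts share the siCtrl#1 libraries. With siCtrl#2 as the reference, siTsg101#1 gave 2 calls (RAB5B and RABGEF1) beside 8.94% of all genes called up, siTsg101#2 gave 0 beside 8.43%, and siVps28#1 gave 1 (RAB5B, 0.67, edgeR adjusted p = 0.0100) beside 2.71%. No gene of the set was called with siVps28#2 against siCtrl#2, where RAB5B passed at less than 1.5-fold (0.57, edgeR adjusted p = 0.0177).

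**Figure D2:**
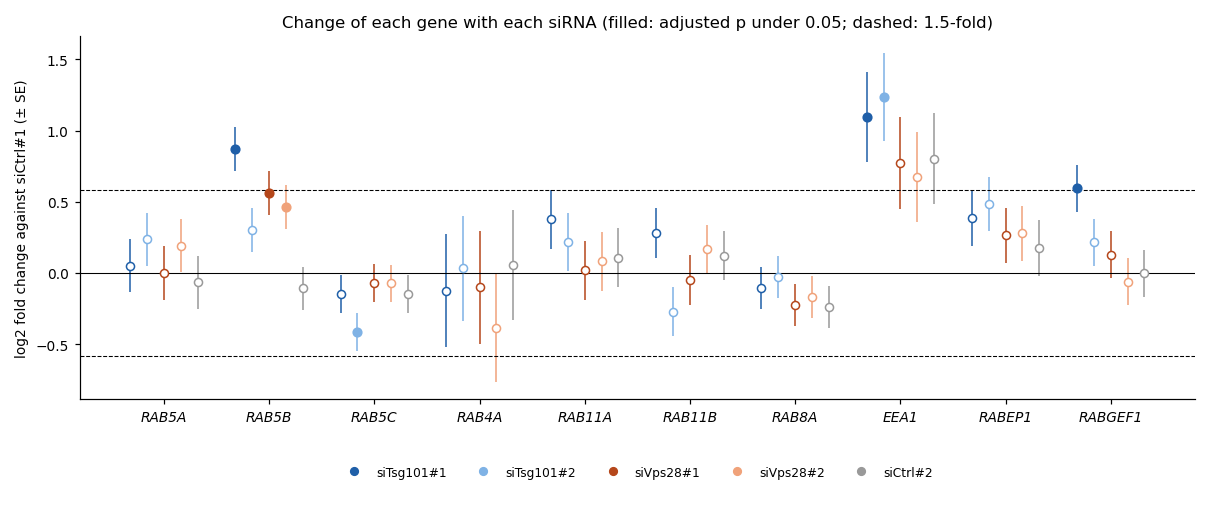
Log2 fold change against siCtrl#1 (y axis, with SE bars) of the 10 genes (x axis) for the 4 on-target siRNAs and for siCtrl#2, with filled points at an adjusted p-value under 0.05 and dashed lines at 1.5-fold. RAB5B is filled for siTsg101#1, siVps28#1 and siVps28#2, EEA1 for both Tsg101 siRNAs, and the siCtrl#2 point of EEA1 lies at 0.80.

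RAB5B was higher in every on-target library than in any control library. The gene (ENSG00000111540) lies on chromosome 12 of GRCh37 from 56367697 to 56390467 on the plus strand, and encodes an early endosome GTPase. In replicates 1, 2 and 3 its level was 142.0, 136.6 and 154.1 CPM with siCtrl#1 and 130.7, 128.8 and 142.0 CPM with siCtrl#2. It was 301.6, 226.9 and 264.0 CPM with siTsg101#1 and 171.7, 188.4 and 173.9 CPM with siTsg101#2. The Vps28 siRNAs gave 239.3, 206.2 and 194.2 CPM (siVps28#1) and 192.5, 167.6 and 237.2 CPM (siVps28#2). This pattern was met by 1.96% of all tested genes in this direction and by 1.19% in the other. The lowest on-target library was siVps28#2 replicate 2 and the highest control library was siCtrl#1 replicate 3.

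The log2 fold change of RAB5B against siCtrl#1 was 0.87 (SE 0.15, edgeR adjusted p = 0.000209) with siTsg101#1, the only one of the 4 that was called. With siTsg101#2 it was 0.30 (SE 0.15, edgeR adjusted p = 0.166). With siVps28#1 it was 0.56 (SE 0.15, edgeR adjusted p = 0.0211) and with siVps28#2 it was 0.46 (SE 0.15, edgeR adjusted p = 0.0414). With single libraries left out, these 2 values ran from 0.47 to 0.62 and from 0.32 to 0.57. The edgeR adjusted p-values then reached 0.104 and 0.21. The nontargeting siCtrl#2 differed from siCtrl#1 by -0.11 (SE 0.15, edgeR adjusted p = 0.807). Within batches 1, 2 and 3 the mean of the on-target libraries exceeded siCtrl#1 by 0.64, 0.52 and 0.48, and siCtrl#2 by 0.76, 0.61 and 0.59. The excess was therefore present in each batch and against each control.

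RAB5A and RAB5C, which encode the other RAB5 proteins of early endosomes, gave no call in any comparison. RAB5A (ENSG00000144566, chromosome 3, 19988589 to 20026667) ranged from 38.1 to 60.8 CPM in controls and from 43.1 to 74.4 CPM in on-target libraries, with a mean difference of 0.12 (SE 0.15, edgeR adjusted p = 0.611). Its within-batch differences from siCtrl#1 were 0.45, 0.027 and -0.11, so that the sign was not the same in all batches. RAB5C (ENSG00000108774, chromosome 17, 40276996 to 40307062) ranged from 223.3 to 268.1 CPM in controls and from 182.9 to 266.8 CPM in on-target libraries, with a mean difference of -0.18 (SE 0.10, edgeR adjusted p = 0.232).

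In the 3 siTsg101#2 libraries RAB5C was at 182.9, 200.8 and 195.2 CPM. RAB5C was lower by 0.41 with this siRNA (SE 0.13, edgeR adjusted p = 0.0305), which is under 1.5-fold. Against siCtrl#2 the difference was -0.27 (edgeR adjusted p = 0.177) and did not pass. Against the mean of both controls it was -0.34 (edgeR adjusted p = 0.0376), also under 1.5-fold. With single libraries left out, the edgeR adjusted p-value against siCtrl#1 reached 0.112. Of the RAB5C transcript, 48.5% is shared in stretches of 50 bases with the unnamed gene ENSG00000267261 on the same strand, so its value is uncertain to that extent. The corresponding shares were 5.4% for RAB5A and 3.5% for RAB5B.

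The balance between the paralogs was read within each library, as the log2 ratio of 2 genes relative to its mean over the control libraries. The ratio of RAB5B to RAB5C was between -0.10 and 0.097 in the controls and between 0.35 and 1.15 in the on-target libraries, which were above all controls in 12 of 12 cases. For RAB5B to RAB5A the control range was -0.33 to 0.33 and 8 of 12 on-target libraries were above it. For RAB11A to RAB11B, 1 of 12 was above a control range of -0.53 to 0.51. RAB5B alone was also above all controls in 12 of 12 on-target libraries, a pattern met by 1.96% of all tested genes. Its ratio to RAB5C is therefore no separate result. These ratios show unequal differences between paralogs and were not tested, and no share over all gene pairs was computed.

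None of the 4 recycling Rab genes was called in any of the 9 comparisons. RAB4A (ENSG00000168118, chromosome 1, 229406809 to 229441641), a GTPase of rapid recycling, had only 6 to 38 counts per library. Its level was 1.46 to 6.42 CPM in controls and 2.06 to 5.68 CPM in on-target libraries, and its mean difference was -0.14 (SE 0.31, edgeR adjusted p = 0.777). The 95% interval of this difference held a 1.5-fold fall but not a 1.5-fold rise.

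RAB11A (ENSG00000103769, chromosome 15, 66018392 to 66184327), a GTPase of the recycling endosome, ranged from 60.9 to 92.0 CPM in controls and from 54.0 to 107.4 CPM in on-target libraries, with a mean difference of 0.17 (SE 0.17, edgeR adjusted p = 0.489). The siTsg101#1 group gave its highest value, 0.38 (SE 0.21, edgeR adjusted p = 0.193). RAB11B (ENSG00000185236, chromosome 19, 8454865 to 8469318), its paralog, ranged from 159.6 to 274.2 CPM in controls and from 154.7 to 276.9 CPM in on-target libraries. Its mean difference was 0.03 (SE 0.14, edgeR adjusted p = 0.899), but the 2 Tsg101 siRNAs gave values of opposite sign, 0.28 and -0.27. RAB8A (ENSG00000167461, chromosome 19, 16222699 to 16245044) ranged from 78.1 to 106.5 CPM in controls and from 75.8 to 110.7 CPM in on-target libraries, with a mean difference of -0.13 (SE 0.11, edgeR adjusted p = 0.437). The siCtrl#2 value of RAB8A, -0.24, was lower than that of any on-target siRNA.

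EEA1, which encodes the tether of early endosomes, had the largest difference of the set, but its control libraries were spread over much of the same range. The gene (ENSG00000102189) lies on chromosome 12 of GRCh37 from 93164413 to 93323107 on the minus strand. Its level in replicates 1, 2 and 3 was 6.96, 9.74 and 16.6 CPM with siCtrl#1 and 8.24, 25.4 and 25.3 CPM with siCtrl#2. With siTsg101#1 it was 19.6, 30.7 and 22.1 CPM, and with siTsg101#2 it was 26.6, 25.6 and 28.1 CPM. With siVps28#1 it was 17.3, 16.8 and 23.9 CPM, and with siVps28#2 it was 17.1, 17.0 and 20.3 CPM. The lowest on-target level, 16.8 CPM, was close to the highest siCtrl#1 level, 16.6 CPM, and 8 of the 12 on-target libraries lay within the range of siCtrl#2. These levels rest on 32 to 178 counts per library.

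Against siCtrl#1, EEA1 rose by 1.09 with siTsg101#1 (SE 0.32, edgeR adjusted p = 0.0136) and by 1.24 with siTsg101#2 (SE 0.31, edgeR adjusted p = 0.0065). It was higher by 0.77 with siVps28#1 (SE 0.32, edgeR adjusted p = 0.145) and by 0.68 with siVps28#2 (SE 0.32, edgeR adjusted p = 0.164), neither of which passed. The difference of siCtrl#2 from siCtrl#1 was of the same size, 0.80 (SE 0.32, edgeR adjusted p = 0.228). Within batches 1, 2 and 3 the on-target mean exceeded siCtrl#1 by 1.51, 1.16 and 0.50, whereas it differed from siCtrl#2 by 1.27, -0.23 and -0.11. The call in the mean was lost when siCtrl#1 replicate 1 (0.69, edgeR adjusted p = 0.116) or replicate 2 (0.86, edgeR adjusted p = 0.0644) was left out, and over all alternatives the adjusted p-value ran from 3.66e-05 to 0.748. With siCtrl#2 as the reference both single-siRNA calls were lost (0.29, edgeR adjusted p = 0.559 for siTsg101#1 and 0.43, edgeR adjusted p = 0.340 for siTsg101#2), and with both controls that of siTsg101#1 was lost (0.69, edgeR adjusted p = 0.0545). The siTsg101#1 call was also lost without siCtrl#1 replicate 1 (0.84), siCtrl#1 replicate 2 (1.01) or siTsg101#1 replicate 2 (0.89), and the siTsg101#2 call without siCtrl#1 replicate 1 (0.98, edgeR adjusted p = 0.0513).

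**Figure D3:**
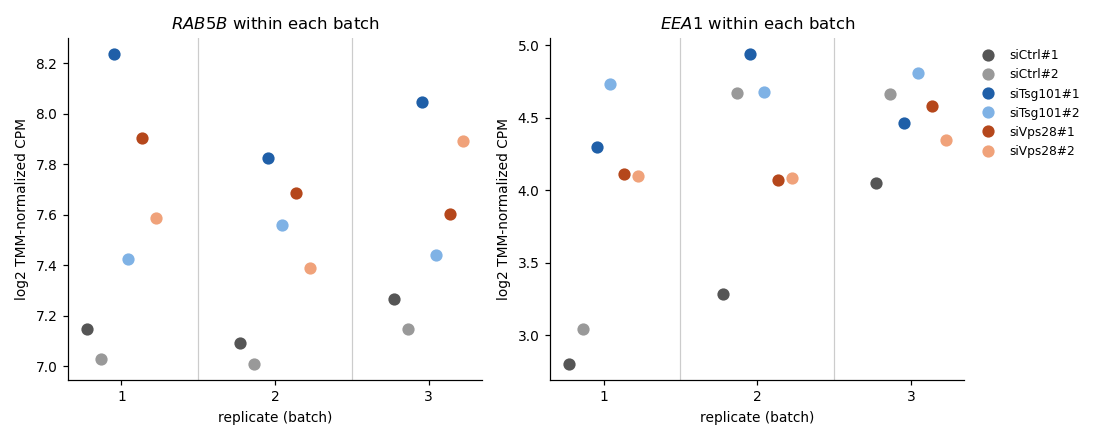
Log2 TMM-normalized CPM (y axis) of RAB5B and EEA1 in each library, by replicate number (x axis, the batch of the labels), with 1 point per siRNA group. RAB5B lies above both controls in each batch, while in batches 2 and 3 the siCtrl#2 point of EEA1 lies among the on-target points.

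RABEP1 and RABGEF1 encode partners in the complex that activates RAB5. RABEP1 (ENSG00000029725, chromosome 17, 5185560 to 5289660) ranged from 25.7 to 43.0 CPM in controls and from 31.8 to 49.5 CPM in on-target libraries. Its mean difference was 0.35 (SE 0.16, edgeR adjusted p = 0.106), with values between 0.26 and 0.48 for the 4 on-target siRNAs and 0.17 for siCtrl#2, none of which passed.

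RABGEF1 differed with 1 of the 4 siRNAs. In siTsg101#1 libraries its level was 88.8, 91.4 and 104.8 CPM. The means of the other groups ran from 60.3 CPM (siVps28#2) to 73.2 CPM (siTsg101#2). It rose by 0.60 with siTsg101#1 (SE 0.17, edgeR adjusted p = 0.00989), close to the fold threshold, and the call was lost when siTsg101#1 replicate 3 (0.52, edgeR adjusted p = 0.0575), siCtrl#1 replicate 1 (0.57) or siCtrl#1 replicate 3 (0.58) was left out. Its differences with siTsg101#2, siVps28#1 and siVps28#2 were 0.22, 0.13 and -0.063. RABGEF1 (ENSG00000154710, chromosome 7, 66147151 to 66276451) shares 91.1% of its transcript with the unnamed gene ENSG00000284461 on the same strand. Whether the amplicon lies in the shared stretch was not tested, so its value is uncertain to that extent.

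Exons of other genes also overlap these loci on the opposite strand, and the strand setting of the counting is not given in the sources used here. The overlap was 3786 bases with NUP88 for RABEP1, 1819 bases with PLEKHG7 for EEA1 and 1960 bases with ENSG00000269243 for RAB8A. It was at most 181 bases for RAB5A, RAB5B, RAB5C, RAB4A and RAB11B and 0 for RAB11A. RABGEF1 had 2119 such bases. RAB8A also shares 207 bases with HSH2D on its own strand.

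The choice of nontargeting control changed which gene was called. With siCtrl#2 as the reference, RAB5B was called in the average of the on-target siRNAs (0.66, SE 0.13, edgeR adjusted p = 0.000757) and EEA1 was not (0.14, SE 0.24, edgeR adjusted p = 0.748), beside 6.13% of all genes called up. With the mean of both controls as the reference, RAB5B was called (0.60, SE 0.096, edgeR adjusted p = 4.29e-05), while EEA1 passed on the adjusted p-value at less than 1.5-fold (0.54, SE 0.19, edgeR adjusted p = 0.0379), beside 7.43% of all genes called up. Over all alternatives the mean difference of RAB5B stayed between 0.51 and 0.66, with adjusted p-values from 4.29e-05 to 0.0234. The difference of siCtrl#2 from siCtrl#1 was called for 0 of the 10 genes by edgeR and by DESeq2, beside 2.09% of all genes, and only EEA1 had an unadjusted p under 0.05. It was called for EEA1 without the low-count filter (0.81, edgeR adjusted p = 0.0336) or without siCtrl#2 replicate 1 (1.15, edgeR adjusted p = 0.0169).

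**Figure D4:**
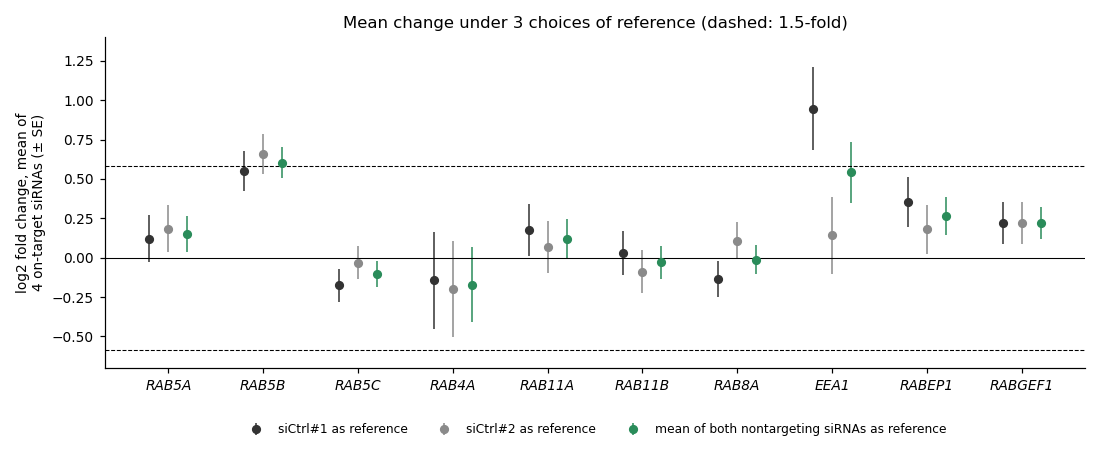
Log2 fold change of the mean of the 4 on-target siRNAs (y axis, with SE bars) for the 10 genes (x axis) against siCtrl#1, siCtrl#2 or the mean of both, with dashed lines at 1.5-fold. RAB5B stays between 0.55 and 0.66 with the 3 references, whereas EEA1 runs from 0.95 to 0.14.

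Comparisons among on-target siRNAs set no control library against another group, although the controls were part of the model that estimates the spread. Between the Tsg101 siRNAs and the Vps28 siRNAs 0 of the 10 genes were called by edgeR or DESeq2, beside 6.23% of all genes, with 3 (EEA1, RABGEF1 and RAB5C) at an unadjusted p under 0.05. RABGEF1 was higher with the Tsg101 siRNAs by 0.37 (SE 0.12, edgeR adjusted p = 0.0365), below 1.5-fold, and was the only gene of the set to pass on the adjusted p-value, beside 11.8% of all genes. The corresponding difference was 0.44 for EEA1 (SE 0.21, edgeR adjusted p = 0.194) and 0.073 for RAB5B (SE 0.11, edgeR adjusted p = 0.729). For RABGEF1 the 2 Tsg101 siRNAs differed from each other by 0.38 (SE 0.16, edgeR adjusted p = 0.165).

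Between the 2 Tsg101 siRNAs 0 of the 10 genes were called by edgeR or DESeq2, beside 6.99% of all genes, with 3 (RAB5B, RAB11B and RABGEF1) at an unadjusted p under 0.05. RAB5B was higher with siTsg101#1 than with siTsg101#2 by 0.57 (SE 0.15, edgeR adjusted p = 0.0211), just under 1.5-fold, with ranges of 226.9 to 301.6 and 171.7 to 188.4 CPM. When only these groups were fitted it was called (0.59, edgeR adjusted p = 0.0216). In the model of all groups RAB5B was the only gene of the set with an adjusted p-value under 0.05, beside 7.96% of all genes. RAB11B was higher by 0.55 (SE 0.17, edgeR adjusted p = 0.0522), with ranges of 223.1 to 276.9 and 154.7 to 190.8 CPM, but it missed the threshold. With the replicate block it passed at less than 1.5-fold (0.56, edgeR adjusted p = 0.0412), beside 11.2% of all genes. All siTsg101#1 libraries were above all siTsg101#2 libraries for 4 of the 10 genes (RAB5B, RAB5C, RAB11B and RABGEF1), beside 13.8% of all genes. The opposite order was not counted, and the comparison of these shares was not tested. For RAB5C the difference was 0.26 (edgeR adjusted p = 0.253) and did not pass. TSG101 itself differed by 0.26 between the 2 Tsg101 siRNAs (SE 0.42, edgeR adjusted p = 0.774). Between the 2 Vps28 siRNAs 0 of the 10 genes were called by edgeR or DESeq2, beside 0.48% of all genes, 0 had an unadjusted p under 0.05, and the differences lay between -0.22 for RAB11B and 0.28 for RAB4A.

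Other genes of the endosomal pathways were read from lists written by function, and are given by counts in the average of the on-target siRNAs against siCtrl#1, beside the 8.56% of all genes called up and 6.54% called down. Of 13 other endosomal Rab genes, 10 were tested, 3 were called up and 0 down by edgeR, with a median of 0.20, and DESeq2 called 2 up. RAB4B, the RAB4 paralog, rose by 1.35 (SE 0.25, edgeR adjusted p = 0.000398) and was called with all 4 siRNAs, but it had 12 to 78 counts per library, its siCtrl#2 value was 0.64, and 100% of its transcript is shared with the readthrough genes MIA-RAB4B and RAB4B-EGLN2. RAB10, a GTPase of exocytosis and recycling, rose by 0.62 (SE 0.16, edgeR adjusted p = 0.00737). RAB22A, an early endosome GTPase of the RAB5 family, rose by 0.59 (SE 0.15, edgeR adjusted p = 0.00733), at the fold threshold, and was under it with DESeq2 (0.58).

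Of 22 genes of the RAB5 network (exchange factors, GTPase-activating proteins, effectors, the class III phosphoinositide kinase and the factors that replace RAB5 by RAB7), 20 were tested, with 1 called up, 1 called down and a median of -0.0029. RIN1, a RAB5 exchange factor that also binds RAS, fell by 0.93 on the log2 scale (SE 0.17, edgeR adjusted p = 0.000267) and was called down with all 4 siRNAs. RBSN (Rabenosyn-5), an effector of RAB5 and RAB4, rose by 0.85 (SE 0.27, edgeR adjusted p = 0.0248). RBSN was higher with the Tsg101 siRNAs than with the Vps28 siRNAs by 1.05 (edgeR adjusted p = 0.00168), but it had 9 to 71 counts per library and shares 50.4% of its transcript with ENSG00000289750.

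In the RAB11 and RAB8 network (20 of 21 genes tested, median 0.022) 2 genes were called up and 0 down by edgeR, and DESeq2 called 1 up. RAB11FIP4, a RAB11 effector, rose by 0.80 (SE 0.25, edgeR adjusted p = 0.0212). MYO5B, the myosin that carries recycling endosomes, rose by 1.19 (SE 0.41, edgeR adjusted p = 0.039) with only 1 to 24 counts per library, and was not called by DESeq2 (1.21, adjusted p = 0.0782). All 16 genes of the retromer, sorting nexin and WASH list were tested, with 2 called up, 0 down and a median of 0.10. SNX3, a sorting nexin of early endosomes, rose by 0.60 (SE 0.19, edgeR adjusted p = 0.0279), and WASHC3, a subunit of the WASH complex, rose by 0.63 (SE 0.22, edgeR adjusted p = 0.0354).

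Among 8 genes of Rab escort and prenylation (median 0.26), 1 was called up and 0 down by edgeR. RABGGTB, the catalytic subunit of the enzyme that prenylates Rab proteins, rose by 0.91 (SE 0.17, edgeR adjusted p = 0.000308) and was called with all 4 siRNAs, but against siCtrl#2 its mean difference was 0.22 (edgeR adjusted p = 0.384). Of 5 receptors that enter or recycle through these endosomes (median 0.46), 2 were called up with all 4 siRNAs and 0 down. TFRC, the transferrin receptor, rose by 1.81 (SE 0.21, edgeR adjusted p = 1.51e-06), and MET, the hepatocyte growth factor receptor, by 2.20 (SE 0.16, edgeR adjusted p = 3.09e-09). The siCtrl#2 value of MET was 1.41, while that of TFRC was -0.20.

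At an unadjusted p under 0.05, the lists without a gene called down held 0 lower genes among the other Rab genes and the receptors, 2 each in the RAB11 and RAB8 network and the retromer list, and 1 in the escort list, and DESeq2 called none of these down. Over the 79 genes tested in these lists, 11 were called up and 1 down against siCtrl#1, which is 15.2% beside 15.1% of all genes. Against siCtrl#2, 7 were called up and 1 down, which is 10.1% beside 10.5% of all genes. Of the 12 genes called against siCtrl#1, 4 were also called in the same direction against siCtrl#2, namely RAB4B (0.70), RAB11FIP4 (0.99), TFRC (2.00) and MET (0.79). RAB10 (0.21), RAB22A (0.28), RBSN (0.34), MYO5B (0.74), SNX3 (0.45), WASHC3 (0.18) and RABGGTB (0.22) were not called against siCtrl#2, and RIN1 (-0.57, edgeR adjusted p = 0.0251) was below 1.5-fold.

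**Figure D5:**
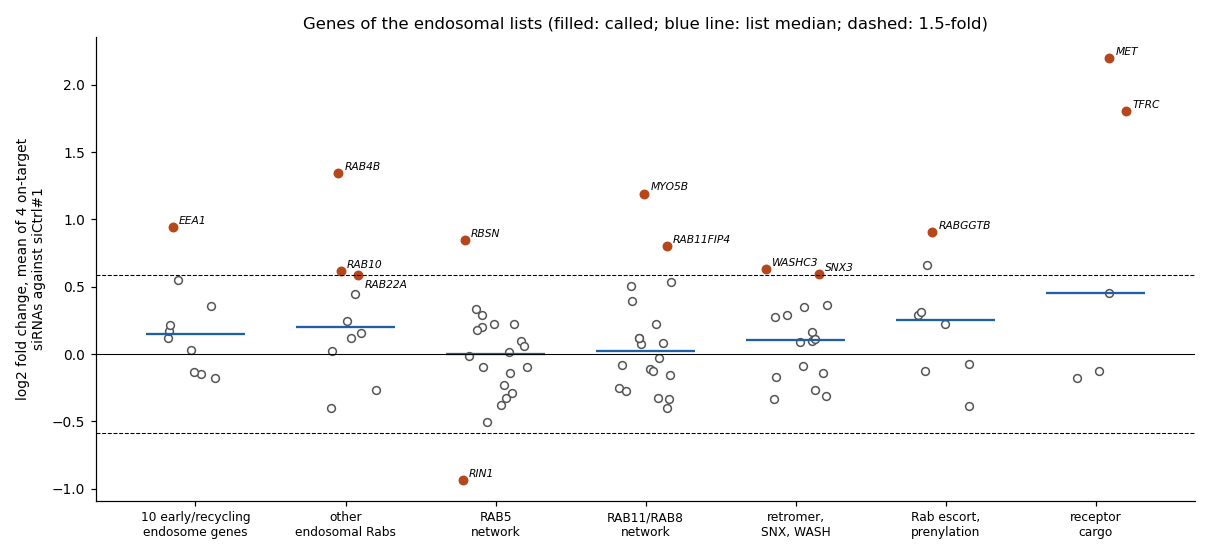
Log2 fold change of the averaged on-target siRNAs against siCtrl#1 (y axis) for each tested gene, in 7 lists by function (x axis), with filled points for called genes, blue lines for list medians and dashed lines at 1.5-fold. List medians run from -0.0029 (RAB5 network) to 0.46 (receptor cargo), and RIN1 is the only called gene below 0.

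RAB5B had the smallest p-value of the set, and the genes whose log2 CPM was most alike over the 18 libraries were ZDHHC17, a palmitoyltransferase (Pearson's r 0.942), NINJ1, a plasma membrane protein (0.893), and TNFRSF9, a TNF receptor family member (0.892). The points share library and depth, and part of the likeness is the difference between groups. After the group means were removed, r was 0.771 for ZDHHC17, 0.333 for NINJ1 and 0.0902 for TNFRSF9. ZDHHC17 had 51 to 188 counts per library and TNFRSF9 had 0 to 173.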

How the data were processed

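RNA of RKO cells was measured by the authors with an Ion AmpliSeq whole-transcriptome amplicon panel on an Ion Proton instrument. Reads were aligned to the panel's hg19 transcript reference with TMAP and counted with HTSeq 0.6.0. The authors deposited raw read counts for each library, without normalization or filtering. They also name DESeq2 1.18.1, of which no output was used. Gene reads were 45.4% to 46.7% of all reads, and the 48.2% to 49.1% that fell on no feature were left out.

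Accessions were matched to symbols by RefSeq, and 114 of 114 list genes were found. A further gene of the receptor list is not reported here. Genes with more than 100 counts in all (10632) were kept and 420 with noncoding accessions left out, which gave 10212 tested genes, 91 of them without a name. Counts were normalized by TMM and tested with the quasi-likelihood test of edgeR 4.0.16 (R 4.3.3), with the 6 groups in 1 model and Benjamini-Hochberg adjustment over all tested genes. The script was first tested on simulated data. Amplified reads carry no molecular identifiers, so all tests rest on the spread between replicates. Groups and replicate numbers came from the labels, and no replicate pair agreed within sampling noise.

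The labels give the replicate number as the batch, so libraries of the same number can be read as pairs. The reported model held the groups alone, without a batch term. The replicate block was only an alternative. Between libraries of the same number, the mean correlation of deviations from the group means was 0.145 over 45 pairs (-0.148 to 0.389). Between different numbers it was -0.073. Deviations within a group cancel out by construction, so the value between different numbers largely follows from that for the same number. It is therefore no separate comparison.

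Alternatives were DESeq2 1.42.0, RLE size factors, a minimum of 10 counts in every library, no minimum, noncoding accessions kept, the adjusted p-value alone, a replicate block, only the groups compared, siCtrl#2 or both controls as the reference, and each library left out in turn. The text names all 10 genes of the set, called genes of each other list (at most 4, by adjusted p-value, and any called with all 4 siRNAs), TSG101, VPS28, and the 3 genes most alike to the member with the smallest p-value. Genes and lists were chosen with earlier results of these data known. Gene positions and shared sequence are from GENCODE v44 lifted to GRCh37, and promoters from RefSeq. Amplicon positions were not used here, so overlaps cover whole transcripts.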

Additional observations from a re-analysis of the deposited data

Results flagged for a closer look

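RABGEF1 differed between Tsg101 and Vps28 depletion by 0.37 on the log2 scale (edgeR adjusted p = 0.0365). The difference itself passed the test, at less than 1.5-fold, and it lay between 0.29 and 0.43 when single libraries were left out, with adjusted p-values from 0.0206 to 0.0989. Most of the transcript is shared with an unnamed gene on the same strand, and the part of that gene in the difference was not tested.

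RAB5B differed between siTsg101#1 and siTsg101#2 by 0.57 (edgeR adjusted p = 0.0211), although both siRNAs target TSG101. The 3 siTsg101#1 libraries were all above the 3 siTsg101#2 libraries, a pattern met by 13.8% of all genes. The difference lay between 0.46 and 0.67 when single libraries were left out, with edgeR adjusted p-values from 0.0129 to 0.117.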

How the results depend on the processing

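The mean differences of the 10 genes, and those single comparisons of a gene that had an adjusted p-value under 0.05, were recomputed under the alternatives. Of these 527 log2 fold changes, 490 kept their direction and stayed called or not called. Among them was every one computed with DESeq2, with at least 10 counts in every library (which left RAB4A untested), with noncoding accessions kept and with the replicate block. An uncalled value counts as kept even where its adjusted p-value rose above 0.05. In edgeR fits this p-value reached 0.104 (siVps28#1), 0.21 (siVps28#2) and 0.117 (between the Tsg101 siRNAs) for RAB5B. It reached 0.177 for RAB5C with siTsg101#2 and 0.0989 for RABGEF1 between Tsg101 and Vps28 siRNAs. With the block, the count of called genes remained 1 for the mean of the 4 on-target siRNAs, 3 for siTsg101#1 and 1 for siTsg101#2, and 0 for each other comparison, and no call changed, although RAB11B then passed on the adjusted p-value between the Tsg101 siRNAs. By the adjusted p-value alone, the counts were 2 for the mean, 2 for siTsg101#2, and 1 each for siVps28#1, siVps28#2, Tsg101 against Vps28 siRNAs and siTsg101#1 against siTsg101#2. Without the low-count filter, EEA1 was called with siVps28#1, siVps28#2 and siCtrl#2, which gave counts of 1 each. With siCtrl#2 as the reference the count was 2 for siTsg101#1 (EEA1 lost), 0 for siTsg101#2 and 1 for siVps28#1 (RAB5B), and with both controls it was 2 for siTsg101#1 and 1 for siVps28#1. With RLE size factors, or with only the groups compared, it was 1 for siTsg101#1 against siTsg101#2 (RAB5B). When single libraries were left out, the count ranged from 0 to 2 for the mean, 1 to 3 for siTsg101#1, 0 to 1 for siTsg101#2, 0 to 2 for siVps28#1, and 0 to 1 for siVps28#2, for siCtrl#2 and for siTsg101#1 against siTsg101#2. The sign of the mean difference turned for RAB8A (0.11) and RAB11B (-0.091) with siCtrl#2 as the reference and for RAB11B with both controls (-0.030). It also turned for RAB11B without siCtrl#1 replicate 1 (-0.12) or replicate 3 (-0.017), within a range of -0.12 to 0.24 when single libraries were left out, and for RAB5A without siCtrl#1 replicate 1 (-0.0044), within a range of -0.0044 to 0.22. The cause of these changes was not tested. Counts were low for RAB4A (6 to 38 per library) and EEA1 (32 to 178), and the part of depth in their spread was not tested.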
